A study of Mus musculus with 8 samples.

Results

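The 7 genes described here, Gas5, Snhg1, Snhg5, Snhg6, Snhg8, Snhg12 and Zfas1, are non-coding genes whose introns carry small nucleolar RNAs (snoRNAs). They are 7 of the 24460 genes counted in the series, and all 7 passed the filter on low counts that left 14296 genes for testing. They were chosen by name as hosts that are cleared by nonsense-mediated decay (NMD), with their normalized counts at 0, 2 and 10 µM RHPS4 already known. Their levels across the doses are therefore a description, and the number of hosts past a threshold is given only beside the share of all genes, as support for nothing. Zfas1 is listed in the files under its older symbol 1500012F01Rik, to which the RefSeq synonyms matched it.

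RNA-Seq was performed on wild type mouse embryonic fibroblasts (MEFs), which are connective tissue cells grown from mouse embryos. The cells were kept in medium with RHPS4 at 0 µM (n = 3), 2 µM (n = 3) or 10 µM (n = 2). RHPS4 is a positively charged small molecule that binds G-quadruplexes, the folded structures of guanine-rich nucleic acid. The labels do not say that libraries of a dose came from separate cultures, so the spread between them may be technical, and they do not single out the exposure time of these libraries. Total counts ran from 10455965 to 26688121 per library, and 3 counts, taken as a detection floor for counting error only, were worth 0.112 to 0.287 CPM, that is, counts scaled to the size of the library.

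Among markers of the labelled cell type, all 10 fibroblast genes passed the filter and summed to 12500 to 14500 CPM per library. The summed markers of epithelial cells were 2.91 to 5.07 CPM, those of blood cells 6.12 to 10.2 CPM (with Hba-a1 and Hbb-bs at 0 counts in every library), of endothelium 3.26 to 5.47 CPM, of muscle 1.72 to 3.67 CPM and of neurons 1.45 to 2.48 CPM. Against 0 µM, 9 of the 10 fibroblast genes had a negative log2 fold change at 2 µM (median -0.30). At 10 µM all 10 did (median -0.20). Of the fibroblast markers, Pdgfrb, a growth factor receptor, was called lower at 10 µM than at 0 µM (log2 fold change -0.60, edgeR adjusted p = 0.000248). This call was lost when libraries were scaled by total counts alone, where the log2 fold change was -0.39. The share of counts on mtDNA features was 13.2 to 14.4% at 0 µM, 7.4 to 8.26% at 2 µM and 5.33 to 6.32% at 10 µM. With the scaling taken over nuclear genes only, the median of the 7 hosts was 0.23 at 2 µM and 0.04 at 10 µM on the log2 scale, close to the values below. In such bulk libraries fewer cells of a type and less RNA per cell cannot be told apart.

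snoRNAs guide the chemical modification of ribosomal RNA (rRNA). Those with boxes C and D direct ribose methylation, and those with boxes H and ACA direct the conversion of uridine to pseudouridine. In mammals most of them are cut out of the introns of a host transcript. What remains after splicing of a non-coding host is an exported RNA with short reading frames, on which ribosomes stop early. NMD is a pathway in which a ribosome that stops upstream of an exon junction complex recruits the UPF and SMG proteins, and the RNA is degraded. Since the pathway needs ribosomes, such hosts are known to accumulate when translation is blocked. Many of them also start with a run of pyrimidines, as the messengers of ribosomal proteins do (a 5′ TOP). Neither translation nor decay was measured in these libraries, which hold RNA levels only.

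In the mm10 assembly (GRCm38), GENCODE places Gas5 at chr1:161034422-161038539 on the plus strand and Snhg6 at chr1:9941959-9944118 on the minus strand. Snhg1 lies at chr19:8723475-8726443 and Zfas1 at chr2:167062934-167065862, both on the plus strand. Snhg12 lies at chr4:132308623-132311024 on the plus strand, Snhg5 at chr9:88521050-88522929 and Snhg8 at chr3:123507552-123508404 on the minus strand. Together they hold 28 annotated snoRNA positions, 9 in Gas5, 8 in Snhg1, 4 in Snhg12, 3 in Zfas1, 2 in Snhg5 and 1 each in Snhg6 and Snhg8. In the transcript with the most exons of each gene, all of these positions fell in introns. Over all annotated transcripts of the hosts, each position except Snord87 overlapped an exon, so reads there can belong to either.

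In those transcripts the reading frame from the first ATG was short, from 2 codons in Snhg8 and 18 in Zfas1 to 54 in Snhg6 and 55 in Snhg12, stop codon included. Gas5 had 24 codons, Snhg5 37 and Snhg1 41. In all 7 the stop codon lay upstream of the last exon junction, by 73 bases in Snhg6, 159 in Snhg5, 213 in Snhg12, 220 in Snhg1, 238 in Snhg8, 315 in Gas5 and 437 in Zfas1. This is the arrangement that the NMD pathway is known to read. The other transcripts of these genes were not read, and how common it is among other spliced non-coding RNAs was not counted.

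The first 40 bases of each of these transcripts are shown because they hold the pyrimidine run of a 5′ TOP where there is one. Capitals mark the longest run of C and T that begins within the first 5 bases.
Gas5: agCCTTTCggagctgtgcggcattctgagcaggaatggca
Snhg1: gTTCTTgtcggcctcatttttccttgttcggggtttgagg
Snhg5: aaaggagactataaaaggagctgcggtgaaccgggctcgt
Snhg6: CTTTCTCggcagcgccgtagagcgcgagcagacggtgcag
Snhg8: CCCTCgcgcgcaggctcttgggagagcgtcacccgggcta
Snhg12: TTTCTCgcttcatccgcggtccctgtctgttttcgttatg
Zfas1: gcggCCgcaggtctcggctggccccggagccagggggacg
The run was 7 bases in Snhg6, 6 in Gas5 and Snhg12, 5 in Snhg1 and Snhg8, 2 in Zfas1 and 0 in Snhg5. These are annotated starts, and no start site was measured here. At the exact RefSeq start, Gas5, Snhg8 and Snhg12 of the 6 hosts listed in the RefSeq promoter table began with at least 5 pyrimidines, against 4.44% of its 32851 promoters. A host was counted if any of its listed promoters did, while the share is per promoter. Snhg6 is not listed there.

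Of the 28 snoRNA positions, 9 have a row of their own in the files. The sequences of 6 of them are shown because they are the hosted products whose counts are described beside their hosts. They were read from the GENCODE transcripts, and capitals mark the boxes found by their letters: box C (TGATGA) and box D (CTGA), or the ACA that ends an H/ACA snoRNA.
Snord47: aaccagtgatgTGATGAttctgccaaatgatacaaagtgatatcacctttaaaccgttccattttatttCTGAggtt
Snord22: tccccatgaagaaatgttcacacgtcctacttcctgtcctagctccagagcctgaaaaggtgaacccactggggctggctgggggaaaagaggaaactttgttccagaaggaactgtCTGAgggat
Snord87: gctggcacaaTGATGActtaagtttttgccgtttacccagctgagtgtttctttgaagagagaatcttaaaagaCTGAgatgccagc
Snord12: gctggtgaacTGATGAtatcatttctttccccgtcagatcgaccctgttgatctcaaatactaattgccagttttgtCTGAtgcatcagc
Snord99: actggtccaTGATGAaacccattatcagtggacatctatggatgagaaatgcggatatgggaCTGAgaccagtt
Snora61: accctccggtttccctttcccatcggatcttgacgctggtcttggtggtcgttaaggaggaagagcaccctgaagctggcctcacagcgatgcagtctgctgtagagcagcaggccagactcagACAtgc
Snord47 lies in Gas5, Snord22 in Snhg1, Snord87 in Snhg6, Snord12 in Zfas1, and Snord99 and Snora61 in Snhg12. In Snord22 no TGATGA was found, so that only its box D is in capitals.

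At 2 µM RHPS4 all 7 hosts had a positive log2 fold change against 0 µM, from 0.14 for Zfas1 to 0.52 for Snhg12, with a median of 0.22, while the median of all 14296 genes was -0.01. At 10 µM they split, with 4 above and 3 below 0 µM, from -0.28 for Gas5 to 0.59 for Snhg6 and a median of 0.05 (all genes 0.02). Between the doses, 5 of 7 were lower at 10 µM than at 2 µM, with a median of -0.31 (all genes 0.03). Of all genes tested, 48.2% were positive at 2 µM, 52.1% at 10 µM and 53.1% at 10 µM against 2 µM. Both doses were compared with the same 0 µM libraries. Since the counted length of each gene is not known, levels are compared between doses and not between genes.

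A gene was called where edgeR's quasi-likelihood test gave an adjusted p below 0.01 and the fitted change was larger than 1.5-fold. With this rule none of the 7 hosts was called at 2 µM against 0 µM, where 0.497% of all genes were. None was called at 10 µM against 0 µM, where 3.09% were, or at 10 µM against 2 µM, where 5.51% were. At an unadjusted edgeR p under 0.05 the hosts numbered 2, 2 and 6 in these comparisons, beside 21.3%, 29.4% and 36.5% of all genes, and DESeq2 called 0 of 7 in each. Snhg6 was called higher at 10 µM than at 0 µM when libraries were scaled by total counts alone (log2 fold change 0.81) or without the first 0 µM library (0.66). Snhg12 was called lower at 10 µM than at 2 µM without the third 2 µM library (-0.63).

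**Figure D1:**
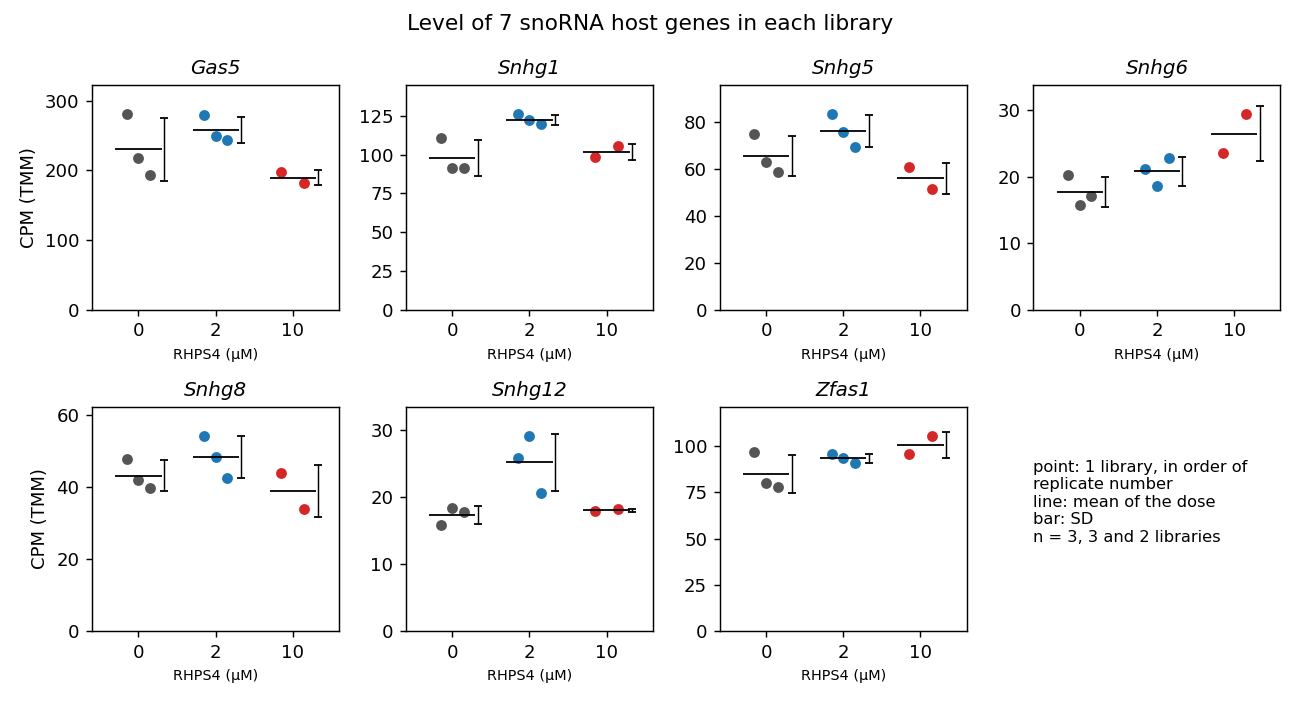
Level of each snoRNA host gene in CPM after TMM normalization (vertical axis, from 0) against the RHPS4 dose in µM (horizontal axis). Points are libraries, lines are means and bars are SD (n = 3, 3 and 2). In Snhg1 and Snhg12 all 2 µM libraries lie above all 0 µM libraries, and in Snhg6 both 10 µM libraries lie above all others.

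Gas5 (growth arrest specific 5), the host with the most snoRNAs here, is known to build up in growth-arrested cells. It was at 281, 217 and 193.5 CPM at 0 µM, at 279, 249.9 and 244 CPM at 2 µM and at 197 and 182 CPM at 10 µM. Apart from the first 0 µM library, the 0 µM values were below those at 2 µM, and both 10 µM libraries were below every 2 µM library. The log2 fold change was 0.16 (SE 0.119) at 2 µM, -0.28 (SE 0.134) at 10 µM and -0.44 (SE 0.135) at 10 µM against 2 µM. Its SD at 0 µM (45.0 CPM) was the widest of the 3 doses (18.9 CPM at 2 µM and 10.4 CPM at 10 µM). Without the first 0 µM library the log2 fold change was 0.34 at 2 µM and -0.14 at 10 µM, and the 2 µM value was 0.05 without the third 0 µM library and 0.10 without the first 2 µM library.

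Snhg1 hosts Snord22 and 7 other snoRNA positions. Its level was 111, 91.2 and 91.2 CPM at 0 µM, 126, 122 and 119.7 CPM at 2 µM and 98.2 and 105 CPM at 10 µM. The 2 µM libraries were close to each other (SD 3.25 CPM) and lay above every library of the other doses. The log2 fold change was 0.33 (SE 0.0849) at 2 µM, 0.06 (SE 0.0949) at 10 µM and -0.27 (SE 0.0954) between the doses.

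Snhg5, the host of Snord50a and Snord50b, was the member without any pyrimidine run at its annotated start. It was at 74.9, 63.1 and 58.8 CPM at 0 µM, at 83.4, 75.9 and 69.5 CPM at 2 µM and at 60.7 and 51.4 CPM at 10 µM. The 0 µM and 2 µM ranges overlapped, and both 10 µM libraries lay below the 2 µM ones. The fitted values were 0.22 (SE 0.106), -0.22 (SE 0.12) and -0.44 (SE 0.121) on the log2 scale for 2 µM, 10 µM and 10 µM against 2 µM. Without the first 10 µM library the 10 µM value was -0.38, and without the second it was -0.13.

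Zfas1, whose name stands for Znfx1 antisense, overlaps the start of Znfx1 on the other strand and hosts 3 snoRNA positions. It stood at 96.95, 80.04 and 77.97 CPM at 0 µM, at 95.55, 93.4 and 91.1 CPM at 2 µM and at 95.4 and 105 CPM at 10 µM. The first 0 µM library was within the range of the treated libraries, and the other two were below all of them. The log2 fold change was 0.14 (SE 0.0889) at 2 µM, 0.25 (SE 0.0984) at 10 µM and 0.11 (SE 0.0987) between the doses. It was 0.25 at 2 µM without the first 0 µM library, and 0.15 at 10 µM and -0.01 between the doses without the second 10 µM library. Znfx1 and Zfas1 share 82 exon bases on opposite strands, 2.8% of the exon length of Zfas1.

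Snhg6, the host of Snord87, had the highest 10 µM value of the 7 relative to 0 µM. It was at 20.2, 15.8 and 17.1 CPM at 0 µM, at 21.1, 18.5 and 22.7 CPM at 2 µM and at 23.5 and 29.35 CPM at 10 µM. The 0 µM and 2 µM libraries overlapped, and the 10 µM libraries lay above both. The log2 fold change was 0.25 (SE 0.125) at 2 µM and 0.59 (SE 0.135) at 10 µM, or 50.9% higher. It was 0.34 (SE 0.136) at 10 µM against 2 µM, and 0.14 without the second 10 µM library. In the annotation 127 exon bases of Snhg6, 11.1% of its exon length, overlap Mcmdc2 on the opposite strand. The libraries were stranded, and whether the counting used the strand is not given in the sources used here.

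Snhg12 hosts both classes, the H/ACA snoRNAs Snora16a, Snora44 and Snora61 and the C/D snoRNA Snord99. Its level was 15.9, 18.4 and 17.8 CPM at 0 µM, 25.8, 29.1 and 20.6 CPM at 2 µM and 17.9 and 18.2 CPM at 10 µM. All 2 µM libraries were above all others, and the 10 µM libraries were inside the 0 µM range. The log2 fold change of 0.52 (SE 0.122) at 2 µM, or 43.2% higher, was the highest of the 7 at that dose. It was 0.05 (SE 0.139) at 10 µM and -0.47 (SE 0.138) between the doses. Snhg12 was also the one host that was not highest in the first library among the 0 µM libraries.

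Snhg8 hosts the H/ACA snoRNA Snora24 alone. It was at 47.95, 41.9 and 39.9 CPM at 0 µM, at 54.2, 48.3 and 42.5 CPM at 2 µM and at 43.96 and 33.9 CPM at 10 µM. The libraries at 0 µM overlapped those at both other doses. The fitted values were 0.17 (SE 0.119) at 2 µM, -0.14 (SE 0.134) at 10 µM and -0.31 (SE 0.135) between the doses. With 1 library left out in turn they ranged from 0.08 to 0.26 at 2 µM. The 10 µM value was -0.37 without the first 10 µM library and 0 without the second, and between the doses it was -0.55 and -0.17.

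Libraries of 2 doses did not overlap at all in a few hosts. Every 2 µM library was above every 0 µM library in 2 of 7 hosts, beside 12.7% of all genes. Both 10 µM libraries were above the 0 µM libraries in 1 of 7, beside 22.9% of all genes. At 10 µM against 2 µM, 1 host lay wholly above (27% of all genes) and 4 lay wholly below (24.9% of all genes).

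The first 0 µM library, the smallest of the series, was the highest of the 3 untreated ones in 6 of 7 hosts. This was also so in 10 of 15 other non-coding hosts and 29 of 31 protein-coding hosts, against 44.2% of all genes tested. Without it the median of the 7 hosts was 0.34 at 2 µM, in place of 0.22, and -0.03 at 10 µM, in place of 0.05.

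**Figure D2:**
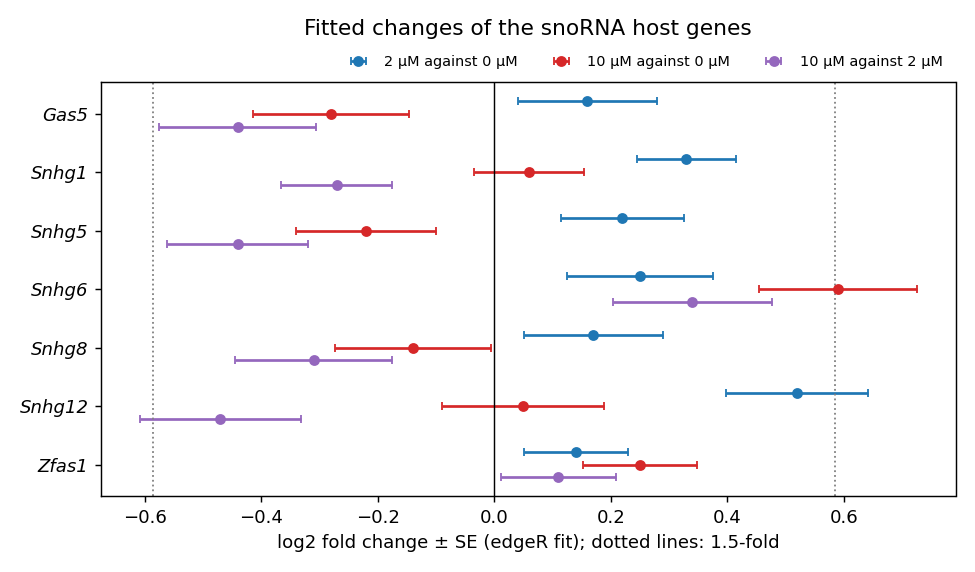
Fitted log2 fold change with its SE (horizontal axis) for each host gene (vertical axis) in the 3 comparisons. Dotted lines mark a 1.5-fold change. All 7 hosts lie right of 0 at 2 µM against 0 µM, and 5 of 7 lie left of 0 at 10 µM against 2 µM, with Snhg6 and Zfas1 on the right.

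Hosts were also compared by their course over the 8 libraries, which share scaling and differ in depth. Pearson's r of a host's log2 CPM with the mean of the other 6 was 0.945 for Snhg1, 0.732 for Snhg5, 0.688 for Gas5, 0.64 for Snhg8, 0.519 for Snhg12 and 0.439 for Zfas1. It was -0.0581 for Snhg6, the host that stood highest at 10 µM. Among all other genes tested, the 10 whose log2 CPM followed the mean of the 7 hosts most closely were Hars, Cisd1, Gtpbp4, Tma16, Ddx27, Plaa, Pak1ip1, Vps4a, Naa20 and Cct7, with r from 0.991 to 0.976 over 8 libraries. Hars, which encodes histidyl-tRNA synthetase, was at a mean of 163 CPM at 0 µM, 186.5 CPM at 2 µM and 166 CPM at 10 µM. These genes were picked for this likeness, so their values are a description.

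The libraries were made from fragmented total RNA, no step for RNAs as short as snoRNAs is described, and a read in a snoRNA can also come from the unspliced host. Of the 9 with a row in the files, Snora24 had 0 counts in every library, and the other 8 passed the filter. None of the 8 was called in any comparison by edgeR, and DESeq2 called 1, Snord99 at 10 µM against 2 µM. At an unadjusted edgeR p under 0.05 they numbered 0 at 2 µM and 1 at 10 µM against 0 µM, and 2 between the doses. Their median log2 fold change was 0.20 at 2 µM, -0.24 at 10 µM and -0.33 for 10 µM against 2 µM.

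Snord22, known as U22 and needed to mature the rRNA of the small ribosomal subunit, was the most counted of them. Its level was 38.5, 25.8 and 31.8 CPM at 0 µM, 24.3, 26.3 and 26.99 CPM at 2 µM and 20.15 and 28.3 CPM at 10 µM. The ranges overlapped at all doses, and the log2 fold change at 2 µM was -0.29 (SE 0.151, edgeR adjusted p = 0.295), the one negative value among the 8. Its host Snhg1 stood at 0.33 there. Within a library, Snord22 counts came to 34.7, 28.2 and 34.9% of Snhg1 counts at 0 µM and to 19.3, 21.6 and 22.5% at 2 µM, so that these groups did not overlap. At 10 µM they came to 20.5 and 26.9%, also below all 0 µM libraries. These percentages and those of the next paragraph use the host counts that chose the hosts, and were not tested. How often such ratios do not overlap between doses among other genes was not counted.

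Snord47 came to 2.29 to 3.43% of Gas5 counts over the 8 libraries, with overlap between all doses. Snord87 came to 10.8, 8.18 and 9.07% of Snhg6 counts at 0 µM, 5.02, 7.49 and 9.42% with 2 µM and 7.01 and 6.37% with 10 µM, where both libraries were below the 0 µM ones. Snord12 came to 6.96, 5.02 and 6.47% of Zfas1 counts at 0 µM, 6.73, 7.42 and 5.09% with 2 µM and 4.73 and 3.82% with 10 µM, which was below all other libraries. In Snhg12, Snora61 came to 90.2, 52.3 and 59.4% of the host untreated, 47.1, 42.3 and 49.7% with 2 µM and 50.2 and 55.7% with 10 µM. The first 0 µM library stood apart in Snora61, the 2 µM libraries were all below the 0 µM ones, and the 10 µM libraries overlapped the 0 µM range. Snord99, at 1.28 to 4.23 CPM, had the lowest log2 fold change between the doses (-1.18, SE 0.315, edgeR adjusted p = 0.0203), called by DESeq2 alone.

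**Figure D3:**
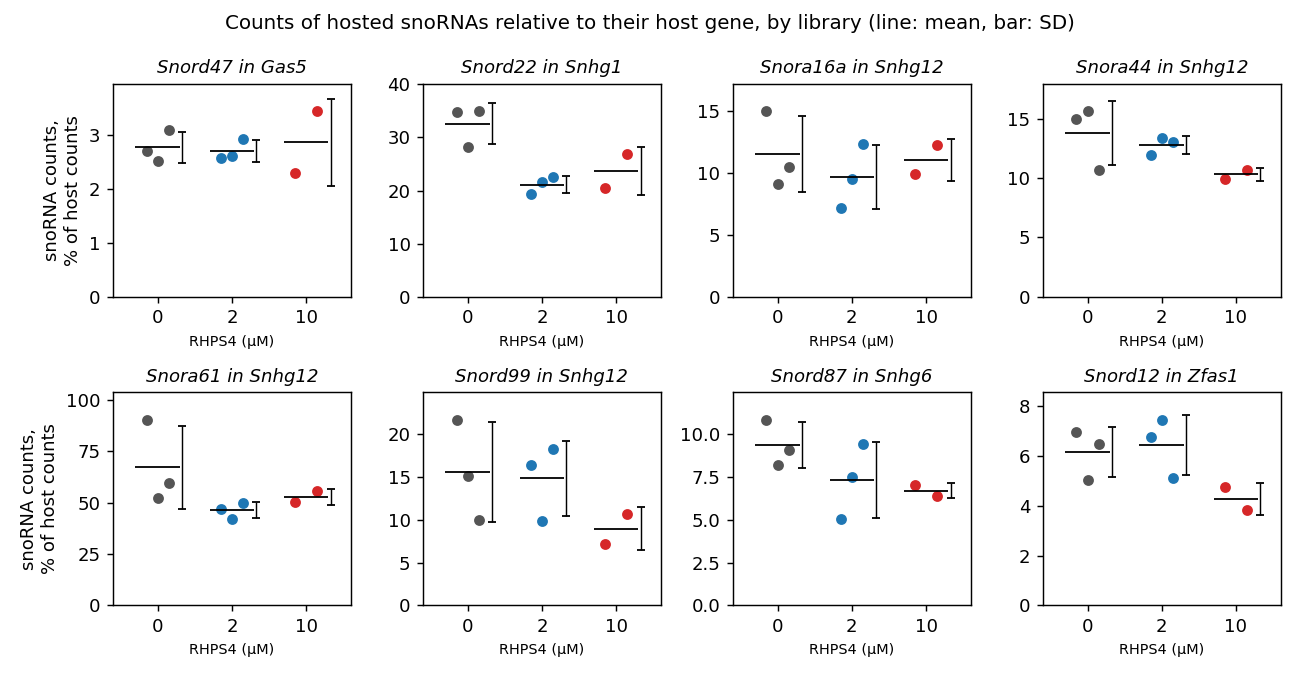
Counts of 8 hosted snoRNAs as a percentage of the counts of their host gene (vertical axis, from 0) against the RHPS4 dose in µM (horizontal axis). Points are libraries, lines are means and bars are SD (n = 3, 3 and 2). Snord22 was at 28.2 to 34.9% of Snhg1 at 0 µM and at 19.3 to 22.5% at 2 µM. In Snord12 both 10 µM libraries, at 4.73 and 3.82% of Zfas1, lie below all others. The percentages use the host counts that chose the hosts, and were not tested.

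The starts of 3 hosts lie close to the start of a protein-coding gene on the other strand. Slc3a2, the heavy chain of the amino acid transporters that exchange cystine and leucine, starts 106 bases from Snhg1. Znfx1, which encodes a zinc finger helicase of antiviral defence, starts 81 bases from Zfas1, and Zbtb37, a zinc finger gene, starts 427 bases from Gas5. That distance is to the Gas5 gene start at 161034422, which lies inside Zbtb37 (chr1:161002922-161034849). The Gas5 transcript described above starts at 161035163, outside Zbtb37. The shared upstream region of Snhg1 and Slc3a2, chr19:8723237-8723536 on the plus strand of GRCm38.p6 (RefSeq), is shown because the genes on its sides had different courses. Capitals mark the bases from the Slc3a2 start to the Snhg1 start.
Snhg1 promoter: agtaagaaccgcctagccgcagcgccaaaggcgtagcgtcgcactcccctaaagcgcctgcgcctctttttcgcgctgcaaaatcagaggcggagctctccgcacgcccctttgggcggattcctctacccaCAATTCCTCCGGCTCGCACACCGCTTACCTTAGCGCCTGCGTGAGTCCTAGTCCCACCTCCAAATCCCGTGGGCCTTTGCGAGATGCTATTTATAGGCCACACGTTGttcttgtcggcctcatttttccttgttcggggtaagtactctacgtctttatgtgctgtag
The Gas5 start with the host transcript above is shown because it is the one listed host promoter with a full cyclic AMP response element. This is chr1:161034916-161035215 on the plus strand, and capitals mark TGACGTCA and TATATA.
Gas5 promoter: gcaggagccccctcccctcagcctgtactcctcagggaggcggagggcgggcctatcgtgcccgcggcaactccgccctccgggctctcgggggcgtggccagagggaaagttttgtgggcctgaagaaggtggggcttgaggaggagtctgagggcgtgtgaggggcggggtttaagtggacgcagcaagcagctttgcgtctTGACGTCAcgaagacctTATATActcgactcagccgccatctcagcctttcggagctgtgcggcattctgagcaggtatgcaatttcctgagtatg
TGACGTCA, the site of CREB and ATF family factors, was found in Gas5 alone of the 6 hosts listed, and in 1.79% of 32851 promoters. TATATA was found in Gas5 and Snhg12 (5.67% of promoters), and TATAAA on either strand in Snhg1, Snhg5 and Snhg8 (13.6%). The letters TGATGCAA or TGATGAAA on either strand, forms of the element bound by ATF4 with C/EBP partners, were found in 1.9% of promoters and in none of the 6. At so low a share, none of 6 sets no contrast with all promoters. Snhg6 is the host not listed, so its promoter was not searched for any of these letters. A match is a description of the letters, not of a bound factor.

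Slc3a2 was at 118, 119 and 122 CPM at 0 µM, at 105, 108 and 105 CPM at 2 µM and at 178 and 154 CPM at 10 µM, with no overlap between doses. It was called higher at 10 µM than at 2 µM (log2 fold change 0.64, SE 0.0781, edgeR adjusted p = 0.000313). Without the first 10 µM library this value was 0.50 and was no longer called. At 10 µM against 0 µM it was 0.47 (edgeR adjusted p = 0.00293), under the 1.5-fold threshold. The log2 ratio of Snhg1 to Slc3a2 counts within a library was -0.09, -0.38 and -0.42 in the untreated libraries, 0.27, 0.17 and 0.18 in those with 2 µM and -0.85 and -0.55 in those with 10 µM. The doses did not overlap, with Snhg1 relatively highest at 2 µM and lowest at 10 µM.

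The Zfas1 ratio to Znfx1 was 0.51, 0.18 and 0.25 untreated, 0.72, 0.70 and 0.61 with 2 µM and 0.17 and 0.42 with 10 µM on the log2 scale. It was highest at 2 µM, and the other doses overlapped. Znfx1 itself had a log2 fold change of -0.22 at 2 µM, 0.27 at 10 µM and 0.49 for 10 µM against 2 µM (edgeR adjusted p = 0.00117, under 1.5-fold). The Gas5 ratio to Zbtb37 was 4.20, 3.45 and 3.45 untreated, 4.27, 3.99 and 3.90 with 2 µM and 3.61 and 3.00 with 10 µM. The 2 µM values overlapped the 0 µM range and lay above both 10 µM values. These ratios use the values that chose the hosts and were not tested.

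**Figure D4:**
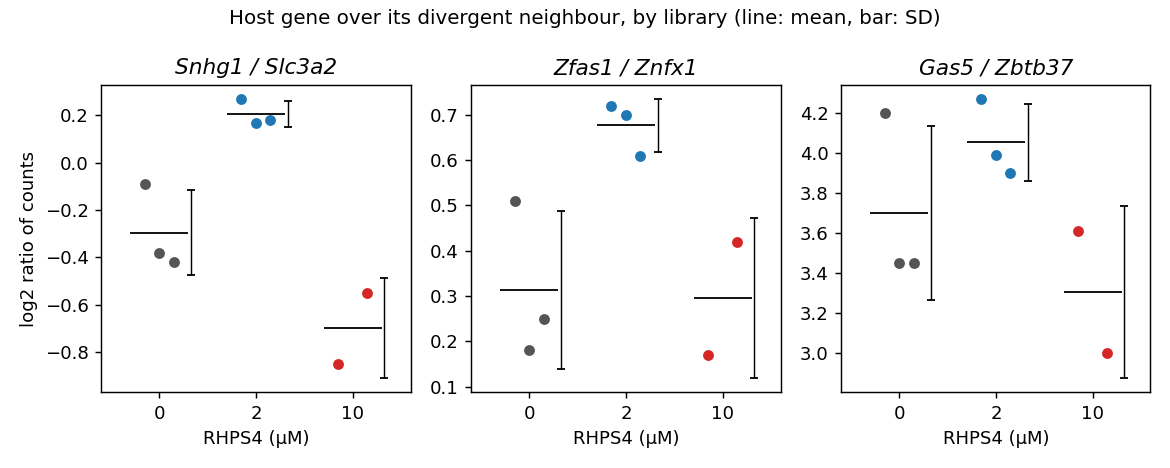
Log2 ratio of host gene counts to those of its neighbour on the other strand, with 0.5 added to each count (vertical axis), against the RHPS4 dose in µM (horizontal axis). Points are libraries, lines are means and bars are SD (n = 3, 3 and 2). Snhg1 over Slc3a2 had a mean of -0.30 at 0 µM, 0.21 at 2 µM and -0.70 at 10 µM.

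The 15 other non-coding snoRNA hosts that passed the filter, of 16 in the files, stood at a median log2 fold change of 0.24 at 2 µM, with 13 of 15 positive. At 10 µM the median was 0.03 with 9 of 15 positive, and between the doses it was -0.22 with 12 of 15 negative. No gene of this list was called against 0 µM at either dose by edgeR, 8 and 4 of them had an unadjusted p under 0.05, and DESeq2 called none. Between the doses 1 was called higher and 1 lower, which is 13.3% of the list, beside 5.51% of all genes. Snhg3, named after its values were seen, was lower at 10 µM (-0.69, edgeR adjusted p = 0.00172), and Snhg18, named likewise, was higher (0.63, edgeR adjusted p = 0.00522). Snhg18 had been at -0.39 at 2 µM against 0 µM, the lowest value of the list there.

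Protein-coding hosts, mostly ribosomal protein and translation factor genes, carry snoRNAs in the introns of translated messengers. All 31 passed the filter, with a median of 0.14 at 2 µM (29 of 31 positive), 0.03 at 10 µM and -0.08 between the doses. edgeR called 0 of 31 at either dose against 0 µM, with 6 and 5 at an unadjusted p under 0.05, and DESeq2 called 0. Between the doses edgeR called 3 (9.68%, beside 5.51% of all genes), all lower at 10 µM, and DESeq2 called 4, with Nop58 added. They were Nop56 (-0.73, edgeR adjusted p = 0.000362), a core protein of C/D snoRNPs, Dkc1 (-0.60, adjusted p = 0.000387), the pseudouridine synthase of H/ACA snoRNPs, and Hspa8 (-0.70, adjusted p = 0.00299), a heat shock chaperone.

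The genes of proteins that assemble on snoRNAs were counted next. Of 17 snoRNP and assembly genes, 16 were positive at 2 µM with a median of 0.25, and 13 were negative at 10 µM with a median of -0.15. edgeR called none of them against 0 µM, with 9 and 7 at an unadjusted p under 0.05, and DESeq2 called 1, Gar1, lower at 10 µM. Between the doses all 17 were negative, with a median of -0.39. There edgeR called 4 lower at 10 µM, which is 23.5% of the list, beside 5.51% of all genes. DESeq2 called 6, with Nop58 and Gar1 added. Beside Nop56 and Dkc1 these were Nhp2 (-0.63, edgeR adjusted p = 0.00114), another H/ACA core protein, and Nolc1 (-0.59, adjusted p = 0.000823), a nucleolar chaperone of snoRNPs. These 4 genes and Hspa8 were named after their values were seen.

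The genes of the decay pathway itself were not called. Of 11 NMD factors, among them the helicase Upf1 and the kinase Smg1, edgeR and DESeq2 called 0 in each comparison, with 1, 3 and 3 at an unadjusted edgeR p under 0.05. Their median was 0.01 at 2 µM, -0.04 at 10 µM and -0.02 for 10 µM against 2 µM. In the last comparison 5 were positive and 6 negative, from -0.48 to 0.28. Smg5, named after its values were seen, was at -0.48 there (edgeR adjusted p = 0.0011), under the fold threshold. Of 6 exon junction complex genes, 0 were called by edgeR in each comparison (3, 3 and 4 at an unadjusted p under 0.05), and DESeq2 called 1, Rbm8a, lower at 10 µM than at 2 µM. Their median was 0.20 at 2 µM, -0.26 at 10 µM and -0.37 for 10 µM against 2 µM, where all 6 were negative.

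Messengers known as NMD targets had 5 positive and 6 negative values at 10 µM against 0 µM. Of the 11 genes, edgeR called 0 at 2 µM (6 at an unadjusted p under 0.05, and 1, Cdkn1a, by DESeq2). At 10 µM against 0 µM it called 4, all higher, which is 36.4% of the list, beside 3.09% of all genes. The median over the list was -0.17 there. Those called were Atf3 (1.96, edgeR adjusted p = 7.92e-06) and Ddit3 (1.32, adjusted p = 8.49e-05), stress-induced transcription factors, Gadd45a (1.49, adjusted p = 0.000383), a growth arrest protein, and Nat9 (0.75, adjusted p = 0.00249), an acetyltransferase. The Nat9 call was lost when the replicate number was a block (adjusted p = 0.0105) and without any one of 4 libraries. Atf4 and Tbl2 are named after their values were seen. Atf4, itself an NMD target, was 0.56 higher (adjusted p = 0.00326), under the fold threshold, and Tbl2 was at -0.52 (adjusted p = 0.00271).

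The integrated stress response (ISR) is the program in which phosphorylated eIF2α lowers general translation and ATF4 raises its target genes. None of its 17 targets, Slc3a2 included, was called at 2 µM by edgeR (8 at an unadjusted p under 0.05, and 0 by DESeq2), where their median was -0.04. At 10 µM 12 of 17, or 70.6%, were called against 0 µM, all higher, beside 3.09% of all genes, and the median was 1.25. The 8 with the most change were Trib3 (2.5, adjusted p = 2.82e-05), Vldlr (2.18, 7.82e-07), Chac1 (2.05, 4.64e-07), Atf3, Slc7a11 (1.80, 4.22e-07), Aldh1l2 (1.75, 4.22e-07), Sesn2 (1.53, 1.79e-05) and Ddit3. Atf3 and Ddit3 are also in the list of NMD targets. At this dose the 7 hosts had a median of 0.05. Snhg6 (0.59), Zfas1 (0.25), Snhg1 (0.06) and Snhg12 (0.05) were above 0, and Gas5 (-0.28), Snhg5 (-0.22) and Snhg8 (-0.14) were below. A relation of the hosts to these targets was not tested.

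Genes that share the 5′ TOP, or act on it, were counted for comparison. Of 13 TOP messengers for translation factors, edgeR and DESeq2 called 0 in each comparison (3, 0 and 2 at an unadjusted edgeR p under 0.05), and their median was 0.05 at 2 µM and 0.02 at 10 µM. Of 10 genes that regulate TOP messengers, 0 were called at 2 µM by edgeR (1 at an unadjusted p under 0.05, and 1, Ddit4, by DESeq2). At 10 µM 2 were called higher, which is 20% of the list, beside 3.09% of all genes. They were Eif4ebp1 (0.76, edgeR adjusted p = 0.000159), which encodes an inhibitor of cap-dependent translation, and Sesn2, an inhibitor of mTORC1 signalling given above. Eif4ebp1 and Sesn2 are both known ATF4 targets.

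**Figure D5:**
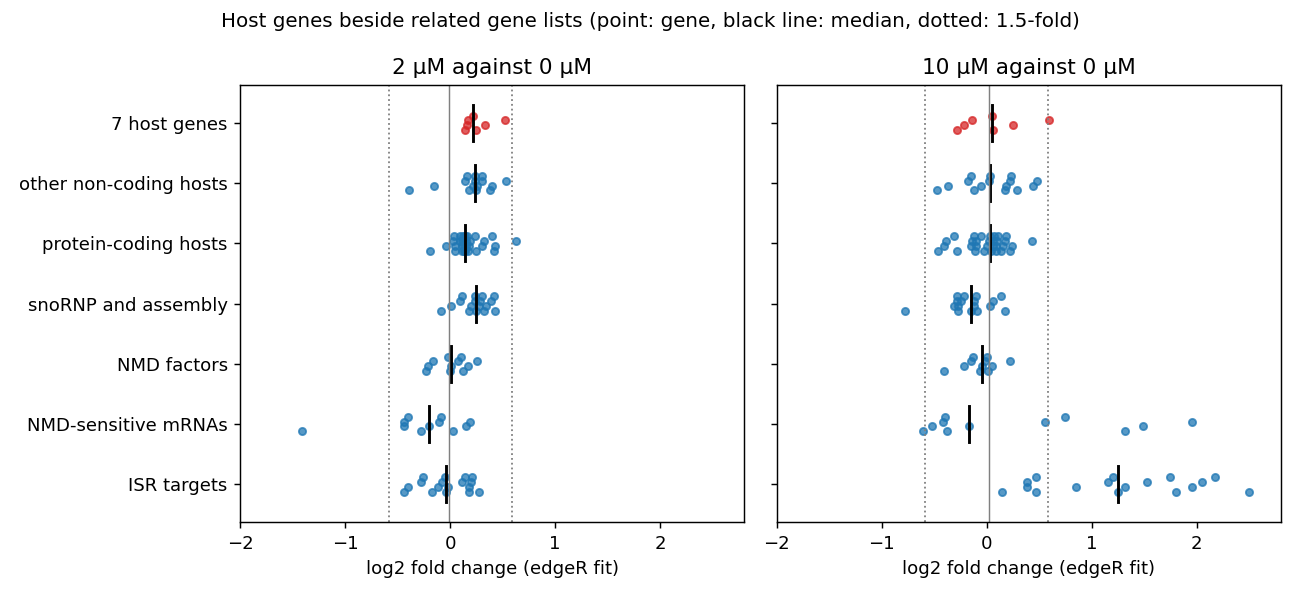
Fitted log2 fold change (horizontal axis) of the genes of each list (vertical axis) at 2 µM (left) and 10 µM (right) against 0 µM. Points are genes, black lines are list medians and dotted lines mark 1.5-fold. The 7 host genes have a median of 0.22 at 2 µM and 0.05 at 10 µM, and the ISR targets a median of -0.04 and 1.25.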

How the data were processed

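Gene-level RNA-Seq counts of 8 libraries were analysed. The authors made stranded, rRNA-depleted libraries from total RNA, trimmed the reads (FastQC, Trim Galore, cutadapt), aligned them to mm10 with STAR 2.5.2a and counted them with featureCounts, as the submitters' processing notes and methods state. They deposited whole-number counts per gene, without normalization. The annotation and the strand setting of the counting are not given in the sources used here. Reads of an intron that some transcripts retain, or of a snoRNA inside its host, may have been assigned to either gene or to none.

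A quasi-likelihood model was fitted with edgeR 4.0.16 under R 4.3.3 (filterByExpr, then TMM scaling, glmQLFit and glmQLFTest, with Benjamini-Hochberg adjustment over 14296 genes), with the dose as the only factor over all 8 libraries, so that the 10 µM group with 2 libraries shared the estimate of the spread. A call needed an adjusted p below 0.01 and more than 1.5-fold change, the thresholds of the study, which used DESeq2. DESeq2 1.42.0 was an alternative here. Each SE was the absolute log2 change divided by the root of F. Levels are CPM on TMM-scaled library sizes. On data simulated for 14296 genes with the spread fitted here, the fit called 96% of 200 genes changed 2-fold at 2 µM, with 4 false calls. At 10 µM it called 98%, with 2 false calls. The changed genes were drawn from those above a minimum level at 0 µM. Changes as small as those of the hosts, and genes at low counts, were not tried. No pair of libraries was alike within sampling noise (chi-square per degree of freedom at least 2.77).

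Symbols were matched to GENCODE M21 (GRCm38), and older ones through RefSeq synonyms. The host genes and the gene lists were chosen with earlier results of these data known. The genes named are the 7 hosts, their snoRNAs, genes that start within 5 kb, at most 8 called genes per list against 0 µM by the size of the change, and the 10 genes most like the mean of the hosts (log2 CPM, prior count 2). Others named are said to have been chosen after their values were seen, or were called by one tool and not the other. Alternatives were another scaling, filter, tool or set of groups, the replicate number as a block, no minimum fold change, and leaving out each library. One gene of the NMD factor list is not reported here.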

Additional observations from a re-analysis of the deposited data

Results flagged for a closer look

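The edgeR test of 10 µM against 2 µM RHPS4 is the test of the difference between the dose effects. By this test 5.51% of all 14296 genes were called, and none of the 7 hosts. Of the other genes of the lists, which were chosen with earlier results of these data known, 22 were called. Among the 22 were 12 of the 17 ISR targets. Some genes are in more than 1 list, and the 22 are not given as a share. They set no contrast with the hosts, since 7 genes are few at a share of 5.51%. The edgeR adjusted p of the 22 ranged from 1.03e-07 to 0.00522. Of the 22, 16 were higher at 10 µM and 6 lower, none was called at 2 µM against 0 µM, and both doses share their 0 µM libraries. The values below are log2 differences, and brackets give the values at 2 and 10 µM against 0 µM.

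The 6 lower genes were Nop56 at -0.73 (0.42 and -0.31), Hspa8 at -0.70 (0.24 and -0.46), Snhg3 at -0.69 (0.22 and -0.47), Nhp2 at -0.63 (0.39 and -0.24), Dkc1 at -0.60 (0.32 and -0.28) and Nolc1 at -0.59 (0.30 and -0.28). Snhg18 was higher by 0.63 (-0.39 and 0.23), and Slc3a2, the neighbour of Snhg1, by 0.64 (-0.17 and 0.47).

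Among the NMD targets the difference was 2.40 for Atf3 (-0.44 and 1.96), 1.78 for Gadd45a (-0.28 and 1.49), 1.72 for Ddit3 (-0.40 and 1.32) and 0.83 for Nat9 (-0.09 and 0.75). Among the regulators of TOP messengers it was 0.86 for Eif4ebp1 (-0.09 and 0.76) and 1.39 for Sesn2 (0.14 and 1.53). Among the other ISR targets it was 2.54 for Trib3, 2.00 for Aldh1l2, 2.00 for Vldlr, 1.84 for Chac1 and 1.82 for Slc7a11. It was 1.53 for Nupr1, 1.32 for Atf5 and 1.04 for Asns, which are named after their values were seen. The 2 µM values of 3 genes, Nat9, Trib3 (-0.04, SE 0.222) and Slc7a11 (-0.02, SE 0.0726), lay within 1 SE of 0.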

How the results depend on the processing

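Of the 48 values of the hosts' median under the alternatives, 43 moved by less than the spread between replicates (SD 0.103 on the log2 scale). Scaling by total counts alone moved it to 0.26 at 10 µM against 0 µM and to -0.17 at 10 µM against 2 µM, while the median of all genes moved to 0.23 and 0.16. With each library left out in turn it ranged from 0.15 to 0.34 at 2 µM, from -0.03 to 0.04 at 10 µM and from -0.50 to -0.25 between the doses, so that its sign at 10 µM was not stable. The number of hosts called was 0 in 48 of 51 alternatives and 1 in the others, at total counts alone at 10 µM (Snhg6) and, with libraries left out, from 0 to 1 at 10 µM against 0 µM (Snhg6), from 0 to 1 between the doses (Snhg12) and 0 at 2 µM. Genes called went from 71 to 109 with DESeq2 and to 107 without a minimum fold change at 2 µM, from 442 to 747 without it and to 914 (846 higher, 68 lower, beside 279 higher and 163 lower) with total counts at 10 µM, and from 788 to 1539 without it between the doses. With total counts the split between the doses was 923 higher and 84 lower, beside 561 and 227, and with DESeq2 it was 235 higher and 269 lower at 10 µM against 0 µM. Leaving out each library gave 6 to 144 at 2 µM, 235 to 633 at 10 µM and 444 to 884 between the doses. The 2 µM count was 6 without the second 2 µM library and 144 without the first 0 µM library, and a group left with 1 library at 10 µM is assumed to vary like the others. The causes of these shifts were not tested.

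Whether same-numbered libraries were paired is not known. The correlation of their deviations from the dose means was 0.199, 0.0845 and 0.161 between 0 and 2 µM. It was -0.145 and -0.105 between 0 and 10 µM, and -0.0212 and -0.061 between 2 and 10 µM. The deviations of the 2 libraries at 10 µM mirror each other, so values with that dose are not independent. These correlations cannot settle whether there was a pairing. With the replicate number as a block, 54, 322 and 735 genes were called in the order of comparisons above, no host was called, and the hosts' median was 0.22, -0.01 and -0.39.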

Other observations

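A few genes of the lists were called by DESeq2 and not by edgeR, and are named here after their values were seen. Gar1, an H/ACA core protein, had a log2 fold change of -0.78 at 10 µM against 0 µM (edgeR adjusted p = 0.0105). Cdkn1a, the inhibitor of cyclin-dependent kinases p21, was at -1.41 at 2 µM (edgeR adjusted p = 0.0398), and Ddit4, an inhibitor of mTORC1, was at -0.60 (adjusted p = 0.0202). Eif4ebp2 was at -1.14 at 10 µM against 0 µM (adjusted p = 0.022), opposite in sign to its paralog Eif4ebp1. Rbm8a, a core protein of the exon junction complex, was at -0.66 at 10 µM against 2 µM (adjusted p = 0.0426). Nop58, a core protein of C/D snoRNPs, was at -0.55 in that comparison (edgeR adjusted p = 0.00426), under the fold threshold, and Gar1 was called there by DESeq2 as well.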
